A study of Homo sapiens with 6 samples.

Results

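The genes described here encode the TGF-β ligands, the proteins that hold those ligands in latent complexes, an activin subunit and the secreted proteins that bind activin. They are TGFB1, TGFB2, TGFB3, LTBP1, LTBP2, LTBP3, LTBP4, INHBA, FST and FSTL3, taken by symbol from the deposited table, 10 of its 58735 gene rows. The cells were T24, an established wild-type human line from a bladder urothelial carcinoma, grown in medium with 10% fetal bovine serum. The 3 TGF-b1 libraries are from cells exposed for 48 h to 10 ng/ml of TGF-β1, the 3 control libraries are from cells not given it, and every library dates to day 2. The comparison asks how transcripts of the signal's own ligands and binders stood after 2 days of exposure to one of those ligands.

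TGF-β is secreted as a dimer still held by its own propeptide, and this complex cannot reach the receptors until it is opened. Most cells release it bound to a latent TGF-β binding protein (LTBP), which anchors it to fibronectin and to fibrillin microfibrils of the matrix, where integrins and proteases can open it. Activins are related dimers of inhibin beta chains that act through their own receptors and the same SMAD2 and SMAD3 proteins, and follistatin and follistatin-like 3 bind them outside the cell and keep them from their receptors.

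Levels were deposited as FPKM, which divides the fragments of a gene by its length and by library depth, so levels of different genes can be compared per length. Fragments assigned to genes numbered 20743070 to 23721801 a library. Of the 11363 genes that reached 1 FPKM in 3 or more libraries, 2.44% passed an adjusted p of 0.05 in limma's test of log2(FPKM + 1), 1.14% higher and 1.29% lower with TGF-β1. Control 3 stood apart from the other control libraries, and without it 12.8% were called higher and 16.8% lower. Of 6 epithelial markers only the keratins KRT7, KRT8 and KRT18 reached 1 FPKM. EPCAM and CDH1 stayed below 1 FPKM in every library, and KRT19 was listed at 0. The list's summed level was 406 to 438 FPKM in TGF-b1 and 469 to 636 FPKM in control libraries. Of 6 urothelial markers UPK1A, UPK1B and PPARG reached 1 FPKM, and UPK3A was listed at 0. All 6 together summed to 4.18 to 4.90 FPKM in TGF-b1 and 5.83 to 6.38 FPKM in control libraries. No fibroblast, endothelial or immune marker reached 1 FPKM in any library. Each of those 3 lists summed to at most 0.633 FPKM in TGF-b1 and 0.745 FPKM in control libraries, with PDGFRA, THY1, TEK and CD3E among the genes listed at 0.

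FSTL3 and LTBP2 rose with TGF-β1, and none of the 8 members tested fell. FSTL3, a secreted antagonist of activin, stood 4.27-fold higher in TGF-b1 than in control libraries, and LTBP2, a microfibril protein of the LTBP family, 2.10-fold higher. TGFB1, the gene of the added cytokine, was the most abundant member in both groups and did not pass the test, and neither did the other ligands tested, INHBA, LTBP1, LTBP3 or LTBP4. TGFB3 and FST lay below the filter and were not tested. The RNA came from whole cultures, so a change in the number of cells that express a gene and a change in RNA per cell cannot be told apart.

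The stretches just upstream of the pair that rose are shown because these are the members that passed the test. They come from RefSeq's promoter table, build GRCh38.p14, cut so that they end before the gene start of both RefSeq and GENCODE release 29. FSTL3 is chr19:676142-676364 on the plus strand and LTBP2 is chr14:74612379-74612487 on the minus strand. Capitals mark GGCGC or GGCCG on either strand, a GC-rich element that SMAD proteins can bind, with 10 overlapping or separate matches in the FSTL3 stretch and 5 in the LTBP2 stretch.
FSTL3: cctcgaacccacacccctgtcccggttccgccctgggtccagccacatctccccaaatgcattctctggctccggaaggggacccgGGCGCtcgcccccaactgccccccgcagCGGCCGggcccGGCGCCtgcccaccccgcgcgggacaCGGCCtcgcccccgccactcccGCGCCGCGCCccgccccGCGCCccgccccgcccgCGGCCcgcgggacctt
LTBP2: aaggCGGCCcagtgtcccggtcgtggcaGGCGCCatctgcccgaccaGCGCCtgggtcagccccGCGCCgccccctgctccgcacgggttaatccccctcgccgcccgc

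In the 250 bases upstream of the RefSeq start, overlapping matches counted, FSTL3 held 13 of these elements and LTBP2 held 5. At least 1 was in 57.0% of the 35116 windows of that length in the table, and 5 or more were in 21.0%. The FSTL3 window was 80.0% G and C, above 96.7% of windows. LTBP4, which did not pass the test, held 11 in 1 of its windows and 0 in the other. The CAGA box, CAGAC on either strand, is the other short element SMADs bind. It was in 38.0% of windows, in neither the FSTL3 nor the LTBP2 window, and in at least 1 window of TGFB2, TGFB3, LTBP1 and LTBP4. These counts describe letters in the windows and nothing more.

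FSTL3 lies on chromosome 19 at 676365 to 683399 on the plus strand (GRCh38, ENSG00000070404.9), is protein-coding, and has 3067 bp of exon in the GENCODE release 29 annotation. Its level was 15.9, 15.3 and 17.1 FPKM in TGF-b1 libraries 1, 2 and 3, against 4.17, 4.86 and 2.27 FPKM in control libraries 1, 2 and 3. All TGF-b1 libraries lay above all control libraries, and control 3 was the lowest of the 6. These levels rest on 1046, 1123 and 1244 fragments in TGF-b1 and on 286, 337 and 161 fragments in control libraries. The mean was 16.1 ± 0.916 FPKM in TGF-b1 and 3.76 ± 1.34 FPKM in control libraries (SD, n = 3 each). As log2(FPKM + 1), a scale that shrinks changes at low levels, FSTL3 rose by 1.88 in limma (SE 0.20, 95% interval 1.42 to 2.35, adjusted p = 0.0033), place 58 of the 11363 genes by p.

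**Figure D1:**
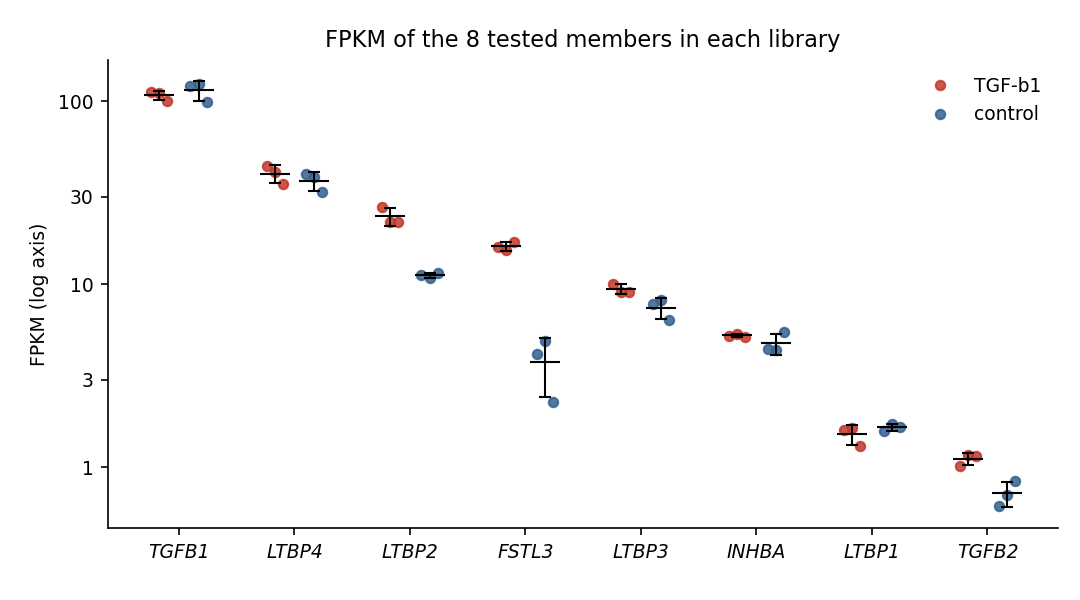
FPKM of the 8 tested members on a log axis, in order of their mean with TGF-β1. Points are libraries 1, 2 and 3 from left to right, red for TGF-b1 and blue for control, and bars give mean and SD (n = 3); FSTL3 and LTBP2 are set apart between the groups, with control 3 the lowest FSTL3 point at 2.27 FPKM.

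FST, which encodes follistatin and lies on chromosome 5 at 53480409 to 53487134, was near the limit of detection, with 7 fragments summed over the TGF-b1 and 4 over the control libraries. Its level was 0.0315, 0.0421 and 0.0284 FPKM in TGF-b1 libraries, against 0.0451, 0 and 0.0146 FPKM in control libraries. The control library listed at 0 allows up to 3 fragments, or 0.0447 FPKM, and a difference in FST was not detectable at this depth. The groups overlapped, and the FSTL3 level exceeded the FST level in every library.

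INHBA encodes the beta A subunit of activin A and of inhibin A, and lies on chromosome 7 at 41667168 to 41705834 on the minus strand. It stood at 5.22, 5.34 and 5.15 FPKM in TGF-b1 libraries, against 4.41, 4.34 and 5.45 FPKM in control libraries, with control 3 above all the others, so the groups overlapped. Its mean was 5.23 ± 0.0969 FPKM in TGF-b1 and 4.74 ± 0.621 FPKM in control libraries (SD, n = 3 each), a log2 change of 0.13 by limma (95% interval -0.095 to 0.35, adjusted p = 0.43). That interval leaves room for a small change in either direction.

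Set against the activin subunit, binder transcript differed between the groups, which mostly restates the FSTL3 rise. The summed level of FST and FSTL3 over that of INHBA was 3.06, 2.87 and 3.32 in TGF-b1 libraries, against 0.954, 1.12 and 0.419 in control libraries. In TGF-b1 libraries binder transcript exceeded INHBA transcript per length in each library, while in control libraries it did so in control 2 only. The mean ratio was 3.08 ± 0.229 in TGF-b1 and 0.831 ± 0.365 in control libraries (SD, n = 3 each), with no overlap. FSTL3 alone over INHBA averaged 3.08 in TGF-b1 and 0.826 in control libraries, so FST added almost nothing. No test is given for this ratio, which is made of members chosen for description, and transcript ratios say nothing of protein amounts.

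**Figure D2:**
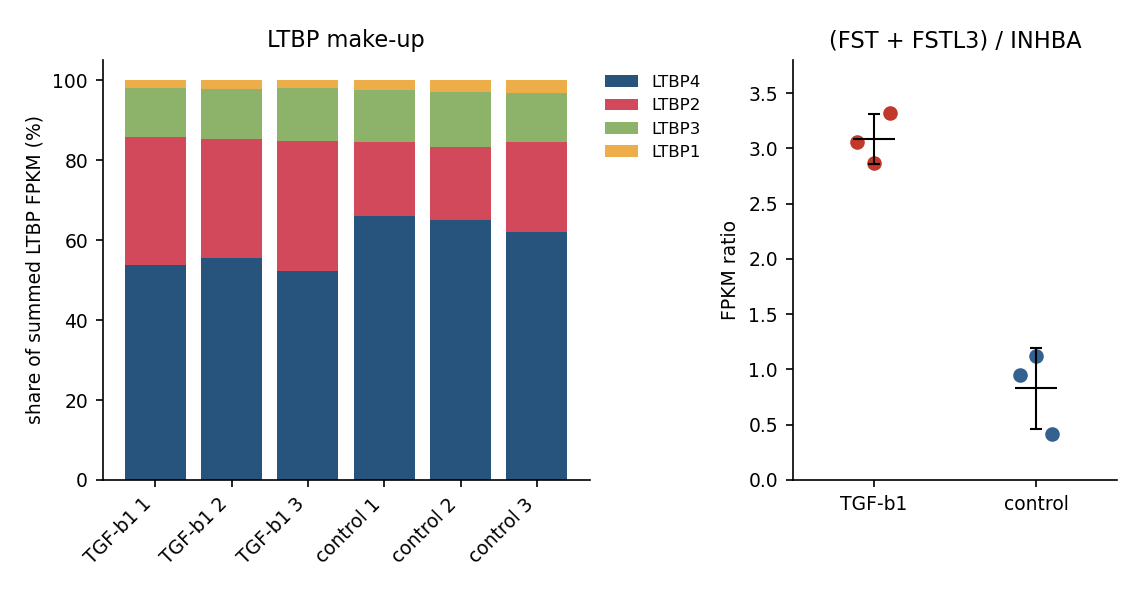
Left, the share of each LTBP gene in the summed FPKM of the 4, per library, with TGF-b1 libraries first. Right, the FPKM ratio of FST plus FSTL3 to INHBA per library (points, replicates 1 to 3 from left to right) with mean and SD (n = 3); the LTBP2 share is 29.7 to 32.5% in TGF-b1 and 18.2 to 22.4% in control libraries, and the ratio does not overlap between the groups.

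LTBP2 is the LTBP known not to bind latent TGF-β, and is a component of elastic microfibrils. It lies on chromosome 14 at 74498170 to 74612378 on the minus strand (ENSG00000119681.11). Its level was 26.5, 21.8 and 22.0 FPKM in TGF-b1 libraries, against 11.2, 10.8 and 11.5 FPKM in control libraries, from 14642 fragments in all TGF-b1 and 6905 in all control libraries. The lowest TGF-b1 library was well above the highest control library, and TGF-b1 1 was the highest of the 6. The mean was 23.4 ± 2.65 FPKM in TGF-b1 and 11.1 ± 0.365 FPKM in control libraries (SD, n = 3 each). LTBP2 rose by 1.0 on the log2(FPKM + 1) scale in limma (SE 0.10, 95% interval 0.78 to 1.22, adjusted p = 0.00051), place 19 by p.

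None of the other LTBPs passed the test. LTBP1, on chromosome 2 at 32946972 to 33399509, binds the latent complexes of the TGF-β isoforms through disulfide bonds. It was low, at 1.59, 1.63 and 1.30 FPKM in TGF-b1 libraries, against 1.57, 1.71 and 1.66 FPKM in control libraries, with the groups overlapping and a log2 change of -0.081 (95% interval -0.30 to 0.14, adjusted p = 0.62 by limma). LTBP3, also a carrier of latent TGF-β, on chromosome 11 at 65538805 to 65558930, was at 10.0, 9.09 and 9.05 FPKM in TGF-b1 libraries, against 7.74, 8.23 and 6.33 FPKM in control libraries. Those groups did not overlap, yet the log2 change of 0.31 did not pass in limma (95% interval 0.073 to 0.54, adjusted p = 0.13).

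LTBP4, an elastic fibre protein that binds latent TGF-β1 only weakly, was the most abundant of the family. It stood at 44.1, 40.8 and 35.2 FPKM in TGF-b1 libraries, against 39.7, 38.4 and 31.8 FPKM in control libraries, and replicate 3 was the lowest library of each group. Its log2 change was 0.12 (95% interval -0.14 to 0.38, adjusted p = 0.51 by limma). LTBP4 lies on chromosome 19 at 40592883 to 40629818, and LTBP3 and LTBP4 have the highest GC content of the 10 members, 67.8% and 66.7%.

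The make-up of the family differed between the groups in LTBP1, LTBP2 and LTBP4, given here without a test. Shares are parts of one sum, so a rise in LTBP2 by itself lowers the other shares. The LTBP4 level averaged 40.0 FPKM in TGF-b1 and 36.7 FPKM in control libraries, and the LTBP1 level 1.51 and 1.65 FPKM. Neither level passed the test. LTBP2 supplied 32.2, 29.7 and 32.5% of the summed LTBP FPKM in TGF-b1 libraries, against 18.6, 18.2 and 22.4% in control libraries. LTBP4 supplied 53.6, 55.6 and 52.2% in TGF-b1 libraries, against 66.0, 65.0 and 62.0% in control libraries. LTBP1 supplied 1.93, 2.23 and 1.92% in TGF-b1 libraries, against 2.60, 2.90 and 3.24% in control libraries, also without overlap. The LTBP3 shares overlapped, at 12.2 to 13.4% in TGF-b1 and 12.3 to 13.9% in control libraries. The level of LTBP2 over that of LTBP1 was 15.6 ± 1.99 in TGF-b1 and 6.78 ± 0.446 in control libraries (SD, n = 3 each), which does not depend on how the libraries were scaled to each other.

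TGFB1 encodes the ligand that was added. Its transcript was at 112, 110 and 101 FPKM in TGF-b1 libraries, against 121, 124 and 98.4 FPKM in control libraries. The groups overlapped, and control 3 was the lowest of the 6, below every TGF-b1 library. The log2 change was -0.081 (SE 0.11, 95% interval -0.33 to 0.17, adjusted p = 0.67 by limma). By mean level TGFB1 exceeded 97.1% of tested genes in TGF-b1 and 96.9% in control libraries, and it lies on chromosome 19 at 41301587 to 41353911.

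TGFB2, the isoform that needs the co-receptor betaglycan for efficient binding to its receptor, was at 1.02, 1.17 and 1.15 FPKM in TGF-b1 libraries, against 0.616, 0.703 and 0.840 FPKM in control libraries. The groups did not overlap, and the ratio of the means was 1.54. The gene lies on chromosome 1 at 218346235 to 218444619. TGFB2 reached the filter of 1 FPKM through its TGF-b1 libraries alone, so the filter itself bears on its direction. The log2 change of 0.30 did not pass in limma (95% interval 0.065 to 0.53, adjusted p = 0.13), from 397 fragments in TGF-b1 and 253 in control libraries. It passed without control 3 (adjusted p = 0.037), where 12.8% of the genes tested were called higher.

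TGFB3, the remaining isoform, on chromosome 14 at 75958099 to 75982991, had 50 fragments over the TGF-b1 and 39 over the control libraries. Its level was 0.171, 0.195 and 0.0771 FPKM in TGF-b1 libraries, against 0.227, 0.0450 and 0.0792 FPKM in control libraries, which overlapped. TGFB1 thus made up 98.8 to 99.0% of the summed ligand FPKM in TGF-b1 and 99.1 to 99.4% in control libraries. The TGFB2 share was 0.894, 1.05 and 1.13% in TGF-b1 libraries, against 0.506, 0.565 and 0.846% in control libraries, without overlap.

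The order of the members by level differed between the groups at 1 gene. In TGF-b1 libraries it ran TGFB1, LTBP4, LTBP2, FSTL3, LTBP3, INHBA, LTBP1, TGFB2, TGFB3 and FST, and no neighbours had overlapping ranges. In control libraries FSTL3 came sixth, after LTBP3 and INHBA, and its range overlapped that of INHBA, as that of TGFB3 overlapped FST. Among the genes tested, FSTL3 exceeded 74.0% in TGF-b1 and 33.5% in control libraries, and LTBP2 exceeded 81.9% in TGF-b1 and 64.6% in control libraries.

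Of the 8 members tested 2 passed higher and 0 lower, against 1.14% of all genes called higher. At an unadjusted p under 0.05 there were 4 higher and 0 lower, against 25.1% of all genes in either direction. The voom method on recovered fragments called 2 members higher and 0 lower, against 3.48% of genes higher and 5.83% lower. The groups did not overlap for 4 members, FSTL3, LTBP2, LTBP3 and TGFB2, all higher with TGF-β1, and 14.6% of the genes tested were higher without overlap. The members' median log2 change was 0.21, against 0.012 over all genes tested. TGFB2, which entered through its TGF-b1 libraries alone, is in these counts; without it 3 of 7 members were higher without overlap, 3 had an unadjusted p under 0.05 and the median was 0.13. FSTL3 and LTBP2 passed whichever library was left out, with log2 changes of 1.63 to 2.05 for FSTL3 and 0.91 to 1.05 for LTBP2. Neither passed when no filter on low values was set and 28285 genes were tested, with an adjusted p of 0.076 for FSTL3 and 0.050 for LTBP2.

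**Figure D3:**
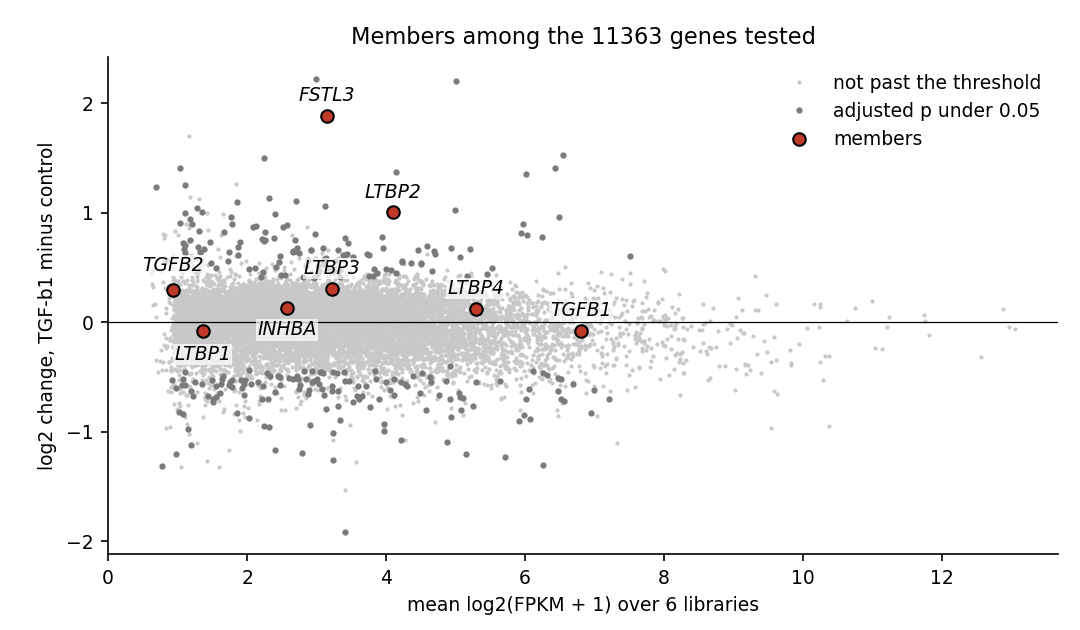
Log2 change (TGF-b1 minus control) against mean log2(FPKM + 1) for the 11363 genes tested. Grey points are genes, darker where the adjusted p was under 0.05, and red points are the members; FSTL3 and LTBP2 lie among the darker points at the top, and the other 6 members lie within the light cloud.

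GC content moved with the groups, and several members are rich or poor in it. Among 1636 tested genes of at least 60% GC the median log2 change was -0.24, while among 1856 genes under 40% GC it was 0.17. For the GC-rich class the median deviation from the mean of the 6 libraries was -0.026, -0.14 and -0.18 in TGF-b1 libraries, against 0.21, 0.24 and -0.084 in control libraries. Control 3 thus stood on the side of the TGF-b1 libraries.

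FSTL3, TGFB1, LTBP3 and LTBP4 are in that class, at 64.4, 63.5, 67.8 and 66.7% GC, and TGFB2 and INHBA are under 40%. With a trend in GC content and exon length removed from each library, the log2 change was 2.15 for FSTL3 (adjusted p = 0.00020) and 1.05 for LTBP2 (adjusted p = 0.00021), in limma as before. LTBP3 and LTBP4 then passed as well, with log2 changes of 0.48 (adjusted p = 0.0077) and 0.31 (adjusted p = 0.018), where 2.16% of genes were called higher and 1.90% lower. With control 3 also left out, LTBP3 and LTBP4 still passed, with adjusted p of 0.018 and 0.030, where 3.31% of genes were called higher and 5.66% lower.

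TGFB1 turned to 0.17 with the trend removed (adjusted p = 0.13) and INHBA to -0.053 (adjusted p = 0.64), and TGFB2 was at 0.13 (adjusted p = 0.42). The direction of TGFB1 and of INHBA thus depended on this setting. The part of the GC trend in these changes was not tested beyond this removal.

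**Figure D4:**
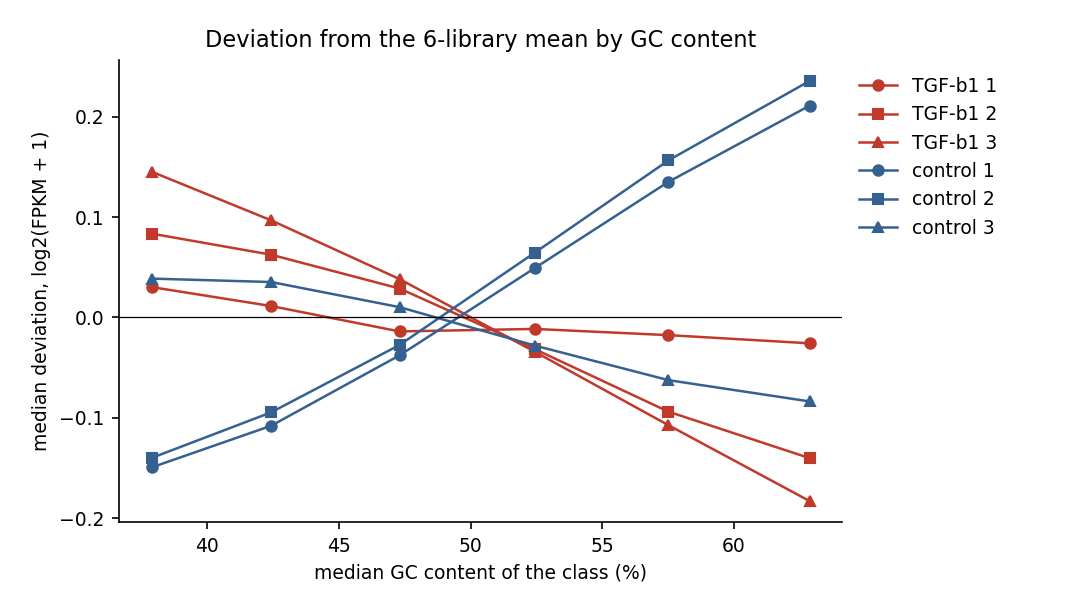
Median deviation of log2(FPKM + 1) from the mean of the 6 libraries, for tested genes in 6 classes of GC content, drawn at the median GC of each class. Red lines are TGF-b1 and blue lines control libraries; control 1 and control 2 rise with GC content to 0.21 and 0.24, and the other 4 libraries fall.

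**Figure D5:**
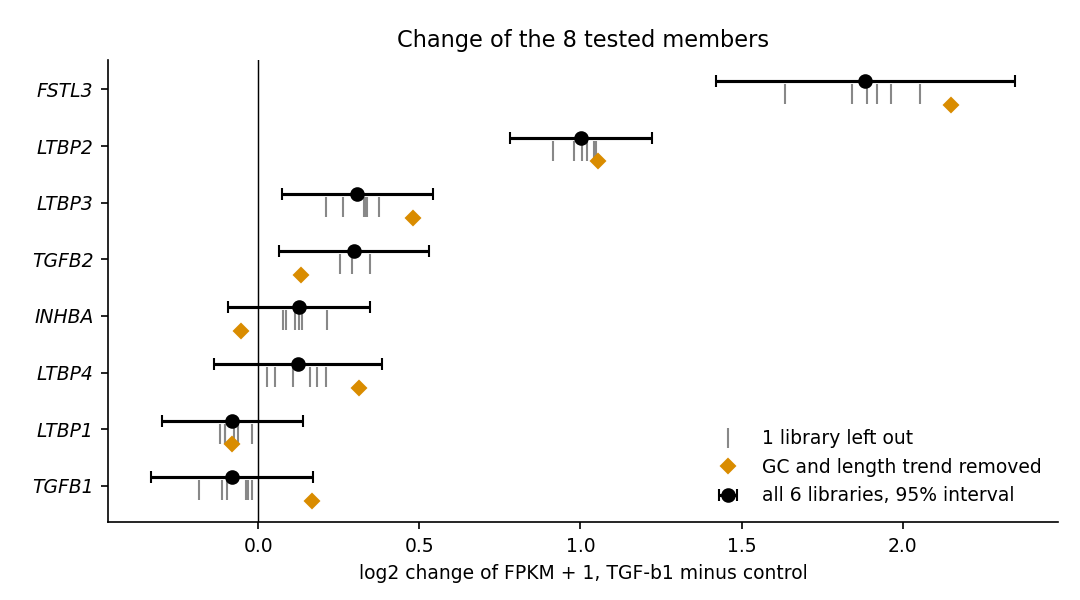
Log2 change of FPKM + 1 (TGF-b1 minus control) of the 8 tested members. Black points and bars give limma's estimate with its 95% interval, grey ticks the estimates with 1 library left out (no tick where a member fell below the filter), and orange diamonds the estimate with the GC and length trend removed; FSTL3 and LTBP2 stay clear of 0 in all of them.

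Genes on the opposite strand overlap some members, and the sources used here do not say whether the counting used strand. No gene overlaps FSTL3, LTBP3, LTBP4 or FST in the annotation. LTBP2 overlaps the long non-coding AC013451.1, at 0.168 FPKM in TGF-b1 and 0.139 FPKM in control libraries on average. TGFB1 overlaps HNRNPUL1, an RNA-binding protein gene at 34.9 ± 4.04 FPKM in TGF-b1 and 39.2 ± 2.35 FPKM in control libraries (SD, n = 3 each; adjusted p = 0.33 by limma), and CCDC97, at 5.36 FPKM in TGF-b1 and 6.25 FPKM in control libraries. TGFB3 overlaps IFT43, a ciliary transport gene, at 3.81 FPKM in TGF-b1 and 4.34 FPKM in control libraries. Fragments from such shared stretches cannot be told apart.

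The genes that followed LTBP2 most closely over the 6 libraries were ITGAV, AMIGO2 and SKIL, by the root mean square difference of their log2 deviations from the control mean among 6310 protein-coding genes. That difference was 0.11 for ITGAV, 0.12 for AMIGO2 and 0.15 for SKIL. ITGAV, the alpha-v integrin subunit, stood at 127, 122 and 124 FPKM in TGF-b1 libraries, against 59.6, 58.7 and 72.9 FPKM in control libraries. The closest to FSTL3 were TUBA4A, PMEPA1 and ANGPTL4, at 0.27, 0.30 and 0.37. All 6 passed the test and were higher with TGF-β1, which the measure favours.

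Around the members, the genes that carry or open latent TGF-β changed in part. Of 17 such genes 11 were tested, and ITGAV, THBS1 and TGM2 rose while none fell, where 1.14% of all genes were called higher. At an unadjusted p under 0.05 there were 5, where 25.1% of all genes were. The voom method called 4 higher, where 3.48% of all genes were. With the GC and length trend removed 4 were higher and 1 lower, where 2.16% of all genes were called higher and 1.90% lower. The lower gene was the integrin subunit ITGB8, at a log2 change of -0.36 (adjusted p = 0.025 by limma). ITGAV, whose integrins pull on latent TGF-β1, rose by 0.96 (SE 0.11, adjusted p = 0.0011 by limma). THBS1, a matrix protein that can open the latent complex, stood at 10.6 ± 0.161 FPKM in TGF-b1 and 6.91 ± 0.697 FPKM in control libraries (SD, n = 3 each; adjusted p = 0.010 by limma). TGM2, a crosslinking enzyme implicated in fixing LTBP1 to matrix, stood at 225 FPKM in TGF-b1 and 148 FPKM in control libraries (adjusted p = 0.014). Without control 1 THBS1 no longer passed (adjusted p = 0.062), and TGM2 did not pass without control 1 or TGF-b1 2 (adjusted p up to 0.066). ITGB6, the partner of alpha-v in epithelial activation, was below the filter, as were the carriers LRRC32 and NRROS. The list's median log2 change was 0.16.

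Other ligands of the superfamily did not pass with all libraries. Of 17 listed 4 were tested, GDF11, GDF15, AMH and BMP6, and 0 passed in limma. At an unadjusted p under 0.05 there was 1, where 25.1% of all genes were. The voom method called 1 lower, where 5.83% of all genes were. GDF15, a stress-induced ligand, was at 74.9, 61.5 and 63.3 FPKM in TGF-b1 libraries, against 100.5, 113 and 80.2 FPKM in control libraries (adjusted p = 0.061). The groups did not overlap, and GDF15 passed as lower without TGF-b1 1 or without control 3. The list's median log2 change was -0.10.

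Of 24 other extracellular binders 7 were tested and 0 passed, with a median log2 change of 0.067. In limma 3 had an unadjusted p under 0.05, where 25.1% of all genes did. The voom method called 1 higher, where 3.48% of all genes were. TWSG1, a modulator of BMP, was at 33.7 FPKM in TGF-b1 and 24.1 FPKM in control libraries (adjusted p = 0.056), and NBL1, a BMP antagonist, at 11.5 FPKM in TGF-b1 and 16.1 FPKM in control libraries (adjusted p = 0.19). Without control 3 the list held 1 gene higher and 2 lower, where 12.8% of all genes were called higher and 16.8% lower. TWSG1 passed once the GC and length trend was removed, at a log2 change of 0.28 (adjusted p = 0.034 by limma). In that setting 2.16% of all genes were called higher. Of 14 microfibril and elastic fibre genes FBN1 and FBLN1 were tested and 0 passed, with 1 at an unadjusted p under 0.05 and 1 higher by voom. The shares of all genes for those 2 counts were again 25.1% and 3.48%. FBN1, the fibrillin to which LTBPs attach, was at 2.47 FPKM in TGF-b1 and 1.63 FPKM in control libraries (adjusted p = 0.059). Their median log2 change was 0.29.

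Receptors and SMADs held no call with all libraries. Of 12 listed 8 were tested and 0 passed, with a median log2 change of 0.16. In limma 3 had an unadjusted p under 0.05, where 25.1% of all genes did. The voom method called 1 higher, where 3.48% of all genes were. Without control 3 the list held 3 higher, where 12.8% of all genes tested were called higher. Removal of the GC and length trend left 1 lower, where 1.90% of all genes were called lower. That gene was SMAD3, a signal-carrying SMAD, at a log2 change of -0.28 (adjusted p = 0.022 by limma). ACVR1B and ACVR2A, receptors that activin uses, were at 5.48 and 1.22 FPKM in TGF-b1 libraries, against 5.42 and 0.975 FPKM in control libraries (adjusted p = 0.92 and 0.30). TGFBR1, the type I receptor of TGF-β, was at 6.50 ± 0.264 FPKM in TGF-b1 and 4.77 ± 0.766 FPKM in control libraries (SD, n = 3 each; adjusted p = 0.082 by limma).

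Of 8 SMAD-dependent response genes tested all 8 rose, where 1.14% of all genes were called higher, with a median log2 change of 1.06. However, this list was drawn up with results of these libraries known. TGFBI, a secreted matrix protein and 1 of the 8, reached 1 FPKM in its TGF-b1 libraries alone, so the filter fixed its direction. PMEPA1 had the largest change of the list, 2.20, above the 1.88 of FSTL3, and SMAD7, an inhibitory SMAD, changed by 1.14 and SKIL by 1.11. KLF10 lost its call without TGF-b1 3, control 1 or control 2, with an adjusted p of up to 0.084.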

How the data were processed

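The tools were HISAT2 2.0.5 and featureCounts 1.5.0-p3 on build hg38, per the submitters' processing notes. The sources used here do not give strand setting, library kit or annotation release. The authors deposited FPKM in 1 table of 6 columns, and the 6 single-library files hold the same values. The 11 rows of mapping totals were left out.

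GENCODE release 29 lengths (GRCh38) turned FPKM into whole fragments, within 0.05, for 99.999% of 127682 values above 0. The deposited denominators were 0.962 to 1.03 times the assigned fragments. Replicates differed by more than sampling noise, with chi-square values of 7.55 to 36.1 per degree of freedom. The labels do not say that replicates were separate cultures, so p-values measure the spread between these libraries, which may be technical. Floors of 3 fragments cover counting error only.

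Values of log2(FPKM + 1) were tested with limma 3.58.1 (R 4.3.3), with trend and robust estimation and treatment as the only term, adjusted by Benjamini-Hochberg over 11363 genes. The fit was also run on simulated data that held no GC trend and no outlying library, so that run says nothing of those features. All adjusted p-values are from the limma fit of the real libraries unless another setting is named. GC content was that of each gene's longest transcript. Motifs searched on both strands also included the AP-1 site TGANTCA and the palindromic SMAD element, GTCT followed by AGAC, with 0 matches upstream of FSTL3 and LTBP2.

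Members and lists were chosen with earlier results of these data known. All members were named; of each list, members past the threshold by size, then the largest changes. ACVR1B, ACVR2A, ITGB6, LRRC32 and NRROS were named outside that rule for their role. Some genes of the lists are counted there but not reported here by name.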

Additional observations from a re-analysis of the deposited data

How the results depend on the processing

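Leaving out 1 library at a time gave 2 to 3 members past the threshold (2 with all libraries), 123 to 3307 genes in all (277 with all, 3307 without control 3 and 123 without control 1, 176 without control 2, 151 without TGF-b1 2 and 144 without TGF-b1 3) and 8 to 21 pathway list genes (11 with all, 21 without control 3). With no filter on low values 0 members passed in limma, with 4 at an unadjusted p under 0.05 and adjusted p of 0.050 for LTBP2 and 0.076 for FSTL3, and 15 genes and 2 list genes passed, among 28285 genes tested. With the GC and length trend removed 4 members and 460 genes passed, and with control 3 also left out, a setting chosen after seeing the data, 4 and 1000. Across all genes, voom called 1057, a fit of protein-coding genes alone 847 and a filter of 5 FPKM 500. TGFB1 reversed to 0.17 with the trend removed and 0.16 with control 3 also left out, and INHBA to -0.053 and -0.042 in those settings; the cause was not tested. In unscaled fragments the differences were 0.607 percentage points for the TGFB2 share and 0.832 for the binder ratio. FSTL3 and LTBP2 kept direction and call under 16 of 17 alternatives each.

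With the replicate number as a block 767 genes passed, with 2 members called, FSTL3 at an adjusted p of 0.011 and LTBP2 at 0.0035 by limma, and it ended no member's call. Deviations of same-numbered libraries from their group means had correlations of 0.25, -0.072 and 0.17, and TGF-b1 2 did not correlate best with its own number. With 3 libraries per group these correlations cannot decide whether the numbers pair the samples. TGFB3 and FST were limited by depth.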

Other observations

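ACTB and GAPDH, commonly used as reference genes, did not pass the test. ACTB averaged 2461 ± 245 FPKM in TGF-b1 and 2373 ± 173 FPKM in control libraries (SD, n = 3 each; adjusted p = 0.81 by limma), and GAPDH 2073 ± 154 FPKM in TGF-b1 and 2463 ± 271 FPKM in control libraries (adjusted p = 0.24), a log2 change of -0.25. The transcript of the 4 LTBPs set against that of the 3 TGF-β ligands was 0.723, 0.658 and 0.663 in TGF-b1 libraries, against 0.495, 0.475 and 0.516 in control libraries. This ratio did not overlap between the groups. LTBP2, known not to bind latent TGF-β, is in the LTBP sum and rose 2.10-fold, so the ratio is not one of carrier to ligand. Within genes of at least 60% GC, 15 passed higher and 58 lower with TGF-β1, and FSTL3 was 1 of the 15. Under 40% GC, 24 passed higher and 4 lower.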
